A study of Homo sapiens with 10 samples.

Results

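Kuramochi cells adapted to 320 µM olaparib were compared with untreated control cells of the same line by droplet single-cell RNA-seq. Kuramochi is an established human line of high-grade serous ovarian cancer with a mutated BRCA2 gene, and olaparib inhibits PARP1 and PARP2, enzymes that answer breaks in DNA. All cells named as 320 µM adapted (3884 cells, 2038 in pool 1 and 1846 in pool 2) and as control (4590 cells, 2435 in pool 1 and 2155 in pool 2) were taken, out of 13800 cells in the deposited matrix. Control cells had never seen the drug. Adapted cells are described only as adapted to 320 µM, so how they were derived, whether they are 1 clone and whether olaparib was present at collection are unknown here. Cells adapted to 10 µM olaparib (3415 cells) and cells that survived 9 days in 320 µM olaparib (persister cells, 1348 cells) of the same line were used for side-by-side values. All groups share the same BRCA2-mutant background and the same medium, RPMI-1640 with serum and insulin.

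PARP1 binds breaks in DNA and builds chains of poly(ADP-ribose) that recruit repair proteins. Olaparib blocks this activity and traps the enzyme on DNA, so that replication forks run into the trapped enzyme, and cells without functional BRCA2 repair the resulting breaks poorly. Known routes by which such cells tolerate PARP inhibitors include restored homologous recombination, loss of the trapped enzyme and protected replication forks. Drug export and a change of cell state are others. Loss of 53BP1 or shieldin is a known route in BRCA1-mutant cells.

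Each pool was a mixture of all conditions, tagged with antibody hashtags before capture, and counts were summed over the cells of 1 condition in 1 pool, which gave 2 sums per condition (n = 2). Whether the pools were grown as separate cultures is not stated, and p-values measure only how far the pools lie apart, which may be a technical spread. Each sum of unique molecular identifiers (UMIs), the count of captured RNA molecules, came to 18358406 and 19834403 for 320 µM adapted and to 22252107 and 23189583 for control cells. The median cell held 8211 and 9679.5 UMIs among 320 µM adapted and 8539 and 10000 UMIs among control cells. Ribosomal protein transcripts took 25.1% and 25.3% of control UMIs and 36.8% and 36.9% of those of 320 µM adapted cells, and the median cell held 8.25% and 8.07% mitochondrial transcripts among control and 5.34% and 5.43% among 320 µM adapted cells. Their part in the changes of single genes was not tested. Barcodes shared between the pools numbered 13 over all cells.

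The label of the cells as epithelial was checked against markers. Of 15 markers of ovarian epithelial cancer cells, 13 were lower in 320 µM adapted cells and 2 were higher, with a median log2 change of -3.17. Their summed level was 4976 and 5131 CPM (UMI counts per 1000000) in control and 1500 and 1381 CPM in 320 µM adapted cells. All marker sums here are scaled by library totals alone, whereas the CPM of single genes below use library sizes scaled by trimmed means. MUC16 and CDH1 had at most 3 UMIs in each 320 µM adapted sum. Markers of other cell types stayed low. The 12 leukocyte markers summed to 1.26 and 1.16 CPM in control and 15.9 and 17.3 CPM in 320 µM adapted cells, where the lysosomal protein gene CD68 rose, and CD3E, CD3D, MS4A1 and CD163 had no UMI in the 4 sums. The 10 fibroblast markers summed to 49.6 and 49.8 CPM in control and 114 and 108 CPM in 320 µM adapted cells, and 5 of them had at most 3 UMIs in each 320 µM adapted sum. The 7 endothelial markers summed to 59.5 and 58.4 CPM and to 61.9 and 61.6 CPM. The 7 mesothelial markers, which share WT1 and MSLN with the ovarian lineage, summed to 159 and 155 CPM in control and to 3.70 and 4.29 CPM in 320 µM adapted cells. The 4 erythroid markers stayed under 0.33 CPM in each of the 4 sums.

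A gene is said to rise or fall where the Benjamini-Hochberg adjusted p of edgeR's quasi-likelihood test was under 0.05. Of 13330 genes tested, 5012 were higher in 320 µM adapted cells than in control (37.6%) and 4918 were lower (36.9%). Changes of at least 2-fold that passed the test numbered 2058 upward (15.4%) and 2013 downward (15.1%). With scaling by library totals alone, the median of all genes moved from 0.01 to -0.22 on the log2 scale, and the same test gave 3726 higher and 6233 lower genes, so that 37.4% of called genes were higher. A fit limited to cells of a deposited list whose name marks them as g1 gave 33.5% of 12461 genes higher and 33.0% lower. Counts of list members are to be read against these shares, because close to 3 in 4 genes tested passed the test in 1 direction or the other. Lists and members were chosen with earlier results of these data known, so that such counts are a description and not independent support. Levels and changes below refer to the scaling with trimmed means, and paired values are those of pool 1 and pool 2 in that order. Where sums are said not to overlap, this describes 2 sums against 2, and its share over all genes was not counted. Some genes were named by a rule that asks for no overlap, so that it adds no support for them.

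The genes of the ovarian serous lineage were among those with the steepest falls. Of 25 lineage genes tested, 17 fell and 6 rose, with a median log2 change of -3.56. SOX17, a transcription factor of the Müllerian tract, measured 289 and 360.0 CPM in control and 4.32 and 7.03 CPM in 320 µM adapted cells. Each control sum was far above each adapted sum, and the log2 change was -5.83 ± 0.26 (SE; edgeR, Benjamini-Hochberg adjusted p = 4.43e-06). WT1, the Wilms tumour transcription factor used to recognise serous carcinoma, measured 24.0 and 25.8 CPM in control and 0.752 and 1.04 CPM in 320 µM adapted cells, a log2 change of -4.77 ± 0.18. MECOM, a zinc finger factor often amplified in this cancer, went from 61.8 and 55.4 CPM to 2.13 and 2.96 CPM, and EMX2, a homeobox factor of the urogenital tract, from 62.0 and 63.5 CPM to 3.38 and 3.08 CPM. PAX8, the lineage factor on which many such cancers depend, fell less, from 173 and 159 CPM to 64.1 and 62.8 CPM (log2 change -1.39 ± 0.059). The groups did not overlap for any of these 5 genes, which the naming rule asked of SOX17.

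Surface proteins of the lineage fell as well. MSLN, which encodes mesothelin, measured 88.3 and 83.2 CPM in control and 2.19 and 2.50 CPM in 320 µM adapted cells (log2 change -5.18 ± 0.098). CDH6, a cadherin of kidney and Müllerian epithelium, measured 516 and 498 CPM in control and 14.0 and 14.5 CPM in 320 µM adapted cells, a log2 change of -5.16 ± 0.06 (edgeR, Benjamini-Hochberg adjusted p = 7.92e-32). LYPD1, a gene of the LY6 family of surface proteins, went from 55.3 and 56.0 CPM to 1.19 and 0.871 CPM. MUC16, which encodes the CA125 antigen, had 0 and 1 UMIs in the 320 µM adapted sums and is at the floor of 3 UMIs, so that no fold is given. Not every lineage gene fell: WFDC2, which encodes the serum marker HE4, had a mean of 267 CPM in control and 344 CPM in 320 µM adapted cells, and SLPI, a secreted protease inhibitor, had 357 and 694 CPM, and both rose.

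**Figure D1:**
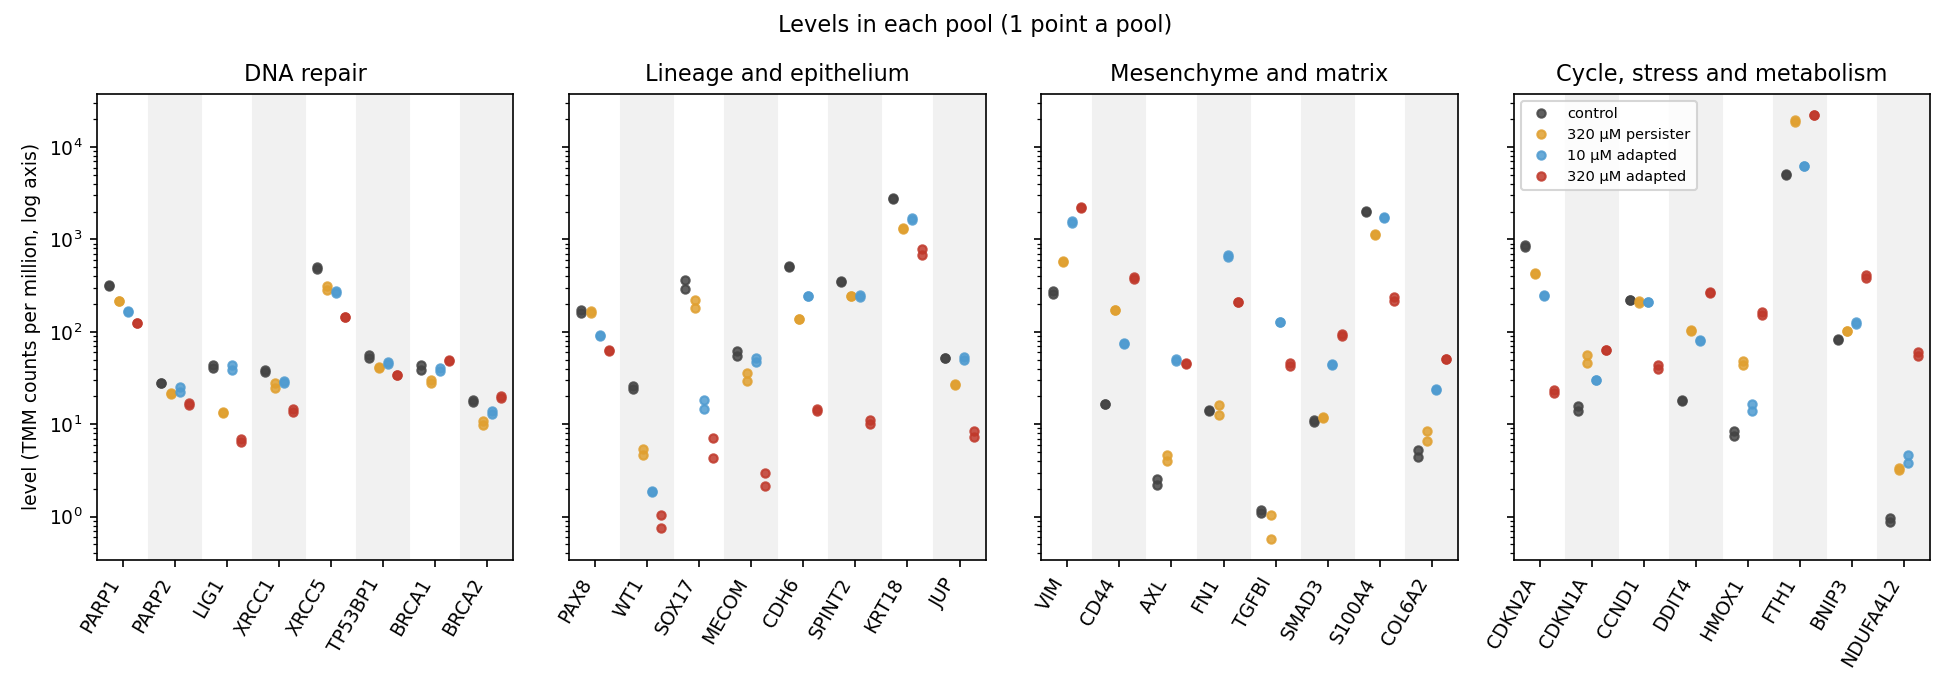
Levels of 32 genes in 4 panels (CPM scaled with trimmed means, on a logarithmic axis), 1 point per pool, with control in black, 320 µM persister in orange, 10 µM adapted in blue and 320 µM adapted cells in red. SOX17 sits at 289 and 360.0 CPM in control and 4.32 and 7.03 CPM in 320 µM adapted cells, while CD44, FN1 and HMOX1 lie above their control levels and the control and adapted points of BRCA2 lie close together.

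Epithelial junction genes fell almost as a whole. Of 31 genes of junctions, apical polarity and epithelial transcription factors that could be tested, 28 fell and 1 rose, with a median log2 change of -2.34, against shares of 36.9% and 37.6% over all genes. DSP, the desmoplakin gene that ties desmosomes to keratin filaments, measured 205 and 195 CPM in control and 45.2 and 38.6 CPM in 320 µM adapted cells. Both adapted sums were under both control sums, with a log2 change of -2.26 ± 0.069 (edgeR, Benjamini-Hochberg adjusted p = 6.60e-19). JUP, the plakoglobin of desmosomes and adherens junctions, went from 52.2 and 51.5 CPM to 7.33 and 8.42 CPM, and TJP1, the scaffold ZO-1 of tight junctions, from 132 and 129 CPM to 60.7 and 56.5 CPM. PARD6B, a subunit of the PAR polarity complex, went from 168 and 164 CPM to 37.1 and 37.1 CPM, and AP1M2, the epithelial subunit of a sorting adaptor, from 20.96 and 22.1 CPM to 3.95 and 4.53 CPM. SPINT2, an inhibitor of membrane serine proteases, measured 353 and 344 CPM in control and 11.02 and 10.1 CPM in 320 µM adapted cells, a log2 change of -5.05 ± 0.061. Some genes of the list were near absent already in control: CDH1, the E-cadherin gene, had 9 and 10 UMIs in control and 1 and 0 UMIs in 320 µM adapted cells, and EPCAM measured 4.25 and 5.005 CPM in control and 1.25 and 1.63 CPM in 320 µM adapted cells.

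Repressors of the ZEB and SNAIL families bind the E-box CAGGTG in promoters of epithelial genes. The 250 bases before the start of 3 genes of this list are shown because they hold that hexamer, here in capitals on either strand, and because the genes fell. They are from RefSeq on GRCh38.p14 and are written 5′ to 3′ in the direction of the gene, for JUP at chr17:41785977-41786226 on the minus strand, DSP at chr6:7541421-7541670 on the plus strand and AP1M2 at chr19:10587313-10587562 on the minus strand.
JUP: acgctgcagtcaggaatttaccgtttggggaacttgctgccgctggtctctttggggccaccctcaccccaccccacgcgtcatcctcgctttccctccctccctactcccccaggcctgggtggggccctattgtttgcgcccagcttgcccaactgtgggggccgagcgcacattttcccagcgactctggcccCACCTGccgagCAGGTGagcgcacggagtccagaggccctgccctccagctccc
DSP: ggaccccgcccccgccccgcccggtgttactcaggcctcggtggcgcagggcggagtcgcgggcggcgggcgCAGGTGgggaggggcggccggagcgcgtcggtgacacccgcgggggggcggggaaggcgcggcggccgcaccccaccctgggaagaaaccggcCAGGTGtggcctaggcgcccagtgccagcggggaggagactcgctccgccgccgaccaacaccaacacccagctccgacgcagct
AP1M2: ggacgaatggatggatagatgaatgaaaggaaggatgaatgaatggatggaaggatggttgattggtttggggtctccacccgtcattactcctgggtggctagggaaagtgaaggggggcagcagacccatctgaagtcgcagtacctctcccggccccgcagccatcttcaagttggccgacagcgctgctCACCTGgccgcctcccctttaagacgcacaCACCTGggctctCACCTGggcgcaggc
Searched on both strands of the 250 bases before the start, CAGGTG was present for 12 of the 16 list genes with an entry (75.0%), among 31 tested. It was present in 17.5% of all 35116 promoters in the table and for 20.8% of the 10474 tested genes with an entry. A match of letters is a description and not a binding site.

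Claudins, the strands of tight junctions, and keratins, the filaments of epithelial cells, did not move as one. Of 11 claudins tested, 6 fell and 1 rose, with a median log2 change of -1.55. CLDN3, a target of Clostridium toxin that ovarian cancers carry in large amounts, went from 46.2 and 47.0 CPM to 3.01 and 3.54 CPM. CLDN4, its partner in toxin binding, went from 17.9 and 18.9 CPM to 6.26 and 6.27 CPM, and CLDN7 from 8.22 and 8.44 CPM to 0.814 and 0.697 CPM. CLDN15 measured 1.33 and 1.36 CPM in control and 2.25 and 1.97 CPM in 320 µM adapted cells and passed the test as higher, but not with library totals (0.42), and not without control pool 1 (0.63), control pool 2 (0.66) or adapted pool 1 (0.55). Of 12 keratins, 4 fell and 5 rose, with a median of -0.47, and 3 rose without control pool 1 or without adapted pool 2. The keratin median was -0.15 in cells of the g1 list, -1.37 in a fit of only the 4 sums and -0.31 without adapted pool 1. The simple epithelial keratins KRT8 and KRT18, which pair with each other, both fell. KRT8 measured 1242 and 1285 CPM in control and 509 and 469.7 CPM in 320 µM adapted cells, a log2 change of -1.37 ± 0.087. KRT18 measured 2750 and 2809 CPM in control and 780.1 and 688 CPM in 320 µM adapted cells, a log2 change of -1.92 ± 0.12. KRT19, the smallest keratin of simple epithelia, fell from 9.73 and 10.7 CPM to 0.251 and 0.465 CPM (log2 change -4.79 ± 0.49). KRT7, the keratin that pathologists read beside KRT20, rose from 2.92 and 2.76 CPM to 6.39 and 5.87 CPM (log2 change 1.11 ± 0.17). Keratin genes thus moved in both directions.

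Most mesenchymal genes rose. Of 27 genes tested, 17 rose and 6 fell, with a median log2 change of 1.00. VIM, the intermediate filament of mesenchymal cells, measured 258 and 279 CPM in control and 2263 and 2170 CPM in 320 µM adapted cells, with a log2 change of 3.04 ± 0.072 (edgeR, Benjamini-Hochberg adjusted p = 4.74e-12). FN1, the fibronectin gene, measured 14.1 and 14.3 CPM in control and 209.6 and 211 CPM in 320 µM adapted cells, a log2 change of 3.89 ± 0.072. AXL, a receptor tyrosine kinase often seen in drug-tolerant carcinoma cells, measured 2.21 and 2.54 CPM in control and 45.3 and 46.4 CPM in 320 µM adapted cells, a log2 change of 4.26 ± 0.10. TGFBI, an adhesive matrix protein induced by TGF-beta, went from 1.19 and 1.10 CPM to 42.3 and 46.5 CPM. THY1, a surface glycoprotein of fibroblasts, went from 36.2 and 36.1 CPM to 126 and 121 CPM. No sum of 1 condition lay within the range of the other for any of these genes.

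Other members of the same list fell. S100A4, a calcium-binding protein often called a fibroblast marker, measured 2015 and 1989 CPM in control and 214 and 241 CPM in 320 µM adapted cells, a log2 change of -3.14 ± 0.047 (edgeR, Benjamini-Hochberg adjusted p = 4.97e-28). LOXL1, an enzyme that crosslinks elastin, went from 116 and 122 CPM to 23.7 and 22.2 CPM. Of 21 contractile genes, 13 fell and 6 rose, with a median of -0.78. MYLK, the myosin light chain kinase, fell from 62.8 and 65.4 CPM to 11.02 and 9.76 CPM (log2 change -2.63 ± 0.083), and CNN3, a calponin, from 390.3 and 373 CPM to 154 and 152 CPM (log2 change -1.31 ± 0.045). ACTN1, an actin crosslinker, rose from 129 and 129 CPM to 269.6 and 262 CPM (log2 change 1.04 ± 0.05).

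Adhesion and matrix genes changed member by member. CD44, the hyaluronan receptor, measured 16.6 and 16.6 CPM in control and 391.5 and 375 CPM in 320 µM adapted cells, with a log2 change of 4.53 ± 0.058 (edgeR, Benjamini-Hochberg adjusted p = 3.27e-31). It was detected, after each cell was thinned to 3000 UMIs, in 5.45% and 4.07% of control cells and in 56.1% and 56.1% of 320 µM adapted cells, and without thinning in 13.02%, 15.3%, 82.5% and 86.6% in the same order. No cell type known to lack these genes was in the pools, so the share of cells that free RNA alone would mark was not measured. LAMA4, a laminin chain of vessel and muscle basement membranes, measured 2.56 and 2.71 CPM in control and 98.9 and 92.7 CPM in 320 µM adapted cells, a log2 change of 5.17 ± 0.097. MRC2, a receptor that takes up collagen, measured 2.74 and 3.01 CPM in control and 59.5 and 61.8 CPM in 320 µM adapted cells, a log2 change of 4.39 ± 0.11. Of 28 integrins and laminins, 13 rose and 10 fell, with a median of 0.44. Without adapted pool 1 that median was 0.16, and with library totals 13 rose and 13 fell. ITGA3, an integrin that binds laminin, went from 35.2 and 33.5 CPM to 167 and 163 CPM, and ITGB8, an activator of latent TGF-beta, from 108 and 111 CPM to 19.2 and 20.3 CPM. Of 19 collagens, 7 rose and 9 fell, with a median of -0.19. The collagen median was -0.64 without adapted pool 1, -0.44 without control pool 1, -0.33 without adapted pool 2 and 0.09 in thinned cells. COL5A1, a chain of the collagen that nucleates fibrils, rose from 3.23 and 3.27 CPM to 21.8 and 23.9 CPM (log2 change 2.81 ± 0.12). COL4A1, a chain of basement membranes, fell from 84.0 and 76.6 CPM to 45.9 and 45.8 CPM (log2 change -0.81 ± 0.073). Of 31 matrix glycoproteins, 14 rose and 11 fell, with a median of 0.35 that ranged from 0.16 without adapted pool 2 and 0.22 without control pool 1 to 0.54 without adapted pool 1 and 0.57 without control pool 2, and was 0.96 in cells of the g1 list. SPON1, a secreted adhesion protein, fell from 115 and 112 CPM to 3.88 and 3.43 CPM, and SERPINE2, a protease inhibitor, rose from 9.82 and 9.50 CPM to 106 and 98.2 CPM.

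TGF-beta signals through SMAD2 and SMAD3, and YAP1 relays cell tension and density to the nucleus. Of 26 genes of these pathways, 15 rose and 8 fell, with a median of 0.31. With library totals 10 rose and 9 fell, with a median of 0.08. SMAD3 measured 10.6 and 11.03 CPM in control and 91.1 and 94.5 CPM in 320 µM adapted cells, a log2 change of 3.099 ± 0.071. The ligand gene TGFB1 measured 6.81 and 5.43 CPM in control and 24.6 and 26.9 CPM in 320 µM adapted cells, a log2 change of 2.08 ± 0.10. YAP1 itself fell from 47.9 and 51.2 CPM to 21.7 and 25.8 CPM. BMP7, a ligand of the BMP branch, which opposes TGF-beta in many epithelia, went from 109.8 and 111 CPM to 3.13 and 4.01 CPM, a log2 change of -4.94 ± 0.10.

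The target of the drug was lower. PARP1 lies on GRCh38 chromosome 1, 226360691 to 226408079, and measured 323 and 314 CPM in control and 125 and 124 CPM in 320 µM adapted cells, a log2 change of -1.36 ± 0.045 (edgeR, Benjamini-Hochberg adjusted p = 2.13e-21). Of 64 genes tested from 220 to 230 Mb on that chromosome, 47 fell, with a median of -0.65. Whether position had a part in the fall of PARP1 was not tested. PARP2, the second enzyme that olaparib inhibits, measured 28.1 and 27.8 CPM in control and 16.9 and 16.1 CPM in 320 µM adapted cells, a log2 change of -0.76 ± 0.082. PARG, the hydrolase that removes poly(ADP-ribose), measured 13.1 and 13.3 CPM in control and 16.1 and 14.9 CPM in 320 µM adapted cells, a log2 change of 0.23 ± 0.10. For each of these 3 genes the control and adapted sums did not overlap. The call of PARG was lost with library totals (0.0046), with DESeq2 (0.24), in thinned cells (0.17) and in cells of the g1 list (0.14). Its change was 0.22 without control pool 1, 0.24 without control pool 2 and 0.17 without adapted pool 1. Over 22 PARP and single-strand break repair genes, 10 rose and 10 fell, with a median of 0.16 that was 0.08 without control pool 2 and turned to -0.06 with library totals. Among those that fell, LIG1, the replicative DNA ligase, measured 43.5 and 40.9 CPM in control and 6.39 and 6.97 CPM in 320 µM adapted cells (log2 change -2.65 ± 0.096). XRCC1, the scaffold of single-strand break repair, fell from 36.9 and 38.7 CPM to 14.7 and 13.6 CPM (log2 change -1.42 ± 0.083). MPG, a glycosylase that removes alkylated bases, rose from 86.2 and 90.6 CPM to 147 and 145 CPM.

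Homologous recombination repairs breaks with the sister chromatid as template and needs BRCA1, PALB2 and BRCA2. BRCA1 measured 43.3 and 39.0 CPM in control and 48.4 and 50 CPM in 320 µM adapted cells and rose by a log2 change of 0.26 ± 0.069, a call that was lost without control pool 2 (0.18) and with library totals (0.031). BRCA2 measured 18.4 and 17.5 CPM in control and 19.3 and 20.4 CPM in 320 µM adapted cells, a log2 change of 0.14 ± 0.095 that did not pass the test (edgeR, Benjamini-Hochberg adjusted p = 0.17). In cells of the g1 list the changes of BRCA1 and BRCA2 were -0.58 and -0.88. Over 37 genes of homologous recombination and the Fanconi anemia pathway, 7 rose and 17 fell, with a median of -0.10 that was -0.37 in cells of the g1 list and -0.04 without control pool 1. FANCL, the ubiquitin ligase of the Fanconi pathway, fell from 50.5 and 50.3 CPM to 16.2 and 17.4 CPM (log2 change -1.58 ± 0.076). MRE11, a nuclease that starts end resection, fell from 65.7 and 59.4 CPM to 30.1 and 30.1 CPM (log2 change -1.05 ± 0.07). RPA2, a subunit of the single-strand binding protein, fell from 94.2 and 93.5 CPM to 44.1 and 41.1 CPM (log2 change -1.14 ± 0.058). It lies on chromosome 1, where all 3 tested members of this list fell.

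Of 22 end joining genes, 11 fell and 6 rose, with a median of -0.29, beside 36.9% lower and 37.6% higher over all genes tested. Among genes of at least 10 CPM in 2 sums, 7 of 17 on the list fell, with a median of -0.10. Over all genes under that filter 3557 of 8799 fell, a share close to that of the list. TP53BP1, which shields ends from resection and whose loss is a known route to PARP inhibitor resistance in BRCA1-mutant cells, measured 55.6 and 52.1 CPM in control and 34.1 and 34.2 CPM in 320 µM adapted cells, a log2 change of -0.66 ± 0.068. RIF1, its effector, went from 113 and 111 CPM to 80.8 and 77.6 CPM. XRCC5, which encodes Ku80, a subunit of the ring that binds free ends, lies on GRCh38 chromosome 2, 216107464 to 216206303, and measured 507 and 477 CPM in control and 143 and 144 CPM in 320 µM adapted cells, a log2 change of -1.77 ± 0.051 (edgeR, Benjamini-Hochberg adjusted p = 1.50e-22). PRKDC, the kinase that Ku recruits, went from 756 and 713 CPM to 502 and 464 CPM. Of 23 genes of the replication stress checkpoint, 8 rose and 11 fell, with a median of -0.22. CLSPN, the claspin adaptor of CHK1, fell from 156 and 156 CPM to 53.6 and 52.0 CPM, and EZH2, a histone methyltransferase, from 48.9 and 46.5 CPM to 21.2 and 21.7 CPM. CLSPN lies on chromosome 1, where the 2 tested members of the checkpoint list fell. SLFN11, an RNA-binding protein that stops stressed forks for good, had 0 and 0 UMIs in control and 4 and 3 UMIs in 320 µM adapted cells, at or close to the floor of 3 UMIs in every sum.

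The drug exporters ABCB1 and ABCG2 gave few UMIs. ABCB1, which encodes P-glycoprotein and exports olaparib, had no UMI in control and 2 and 2 UMIs in 320 µM adapted cells, and ABCG2 had 4 and 5 UMIs and 1 and 2 UMIs. Neither had enough counts to be tested. Of 25 ABC transporter genes tested, 8 rose (32.0%) and 9 fell (36.0%), beside 37.6% and 36.9% over all genes tested. By at least 2-fold, 5 rose and 3 fell, where 15.4% and 15.1% of all genes did. The median was 0.07, turned to -0.16 with library totals and lay between -0.10 and 0.02 with any 1 of the 4 sums left out. ABCC5, an exporter of cyclic nucleotides, went from 20.5 and 19.8 CPM to 7.83 and 7.38 CPM, a log2 change of -1.41 ± 0.11.

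Replication genes were lower, and fewer cells were called in S phase. Calls by gene scores, after thinning to 3000 UMIs, put 24.7% ± 0.779 (SD, n = 2) of control cells and 11.8% ± 0.228 of 320 µM adapted cells in S phase, and 33.0% ± 0.0715 and 32.8% ± 1.36 in G2/M phase. Without thinning the G2/M shares were 28.5% ± 0.237 and 31.3% ± 1.09. With 2 values against 2, an exact two-sided permutation test cannot give a p under 0.33. The scores use the same S phase and G2/M gene lists that are counted below, so that calls and counts are not independent. Free RNA in droplets and the chromosome position of list members can enter such calls, and their part was not tested. Of 43 S phase genes, 26 fell and 6 rose, with a median of -0.45. All 6 members on chromosome 1 fell, and of the other 37, 20 fell, with a median of -0.31. RRM2, a subunit of ribonucleotide reductase, measured 43.6 and 44.8 CPM in control and 17.0 and 15.2 CPM in 320 µM adapted cells, a log2 change of -1.46 ± 0.085 (-0.74 and not past the test in cells of the g1 list). MCM4, a subunit of the replicative helicase, measured 146 and 139 CPM in control and 70.8 and 69.3 CPM in 320 µM adapted cells, a log2 change of -1.02 ± 0.058.

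None of 23 histone genes rose and 21 fell by edgeR's test, with a median of -1.02, and in cells of the g1 list 14 fell and 2 rose, with a median of -0.68. H2AFZ, a variant histone made through the cycle, measured 1489 and 1474 CPM in control and 845 and 814 CPM in 320 µM adapted cells, a log2 change of -0.84 ± 0.042. HIST1H1C, a linker histone, measured 153 and 152 CPM in control and 85.6 and 76.0 CPM in 320 µM adapted cells, a log2 change of -0.92 ± 0.062. Reads of histone genes that lack a poly(A) tail are captured poorly by oligo(dT), and near-identical copies can share reads. Of 54 G2/M genes, 32 fell and 13 rose, with a median of -0.20, and in cells of the g1 list 38 fell and 4 rose. All 10 members on chromosome 1 fell, and of the other 44, 22 fell, with a median of -0.09. UBE2C, the ubiquitin carrier of the anaphase-promoting complex, rose from 303 and 313 CPM to 761 and 738 CPM (log2 change 1.28 ± 0.045), whereas CENPF, a kinetochore protein, fell from 646 and 651 CPM to 334 and 321 CPM (log2 change -0.99 ± 0.051). MKI67, the proliferation marker, measured 155 and 155 CPM in control and 108 and 98.8 CPM in 320 µM adapted cells, a log2 change of -0.59 ± 0.058.

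Regulators of the G1 phase moved in both directions. Of 28 cyclins, cyclin-dependent kinases and their inhibitors, 15 rose and 8 fell, with a median of 0.21 that turned to -0.01 with library totals, where 8 rose and 10 fell. CCND1, the cyclin D1 gene, measured 224 and 223 CPM in control and 39.6 and 43.8 CPM in 320 µM adapted cells, a log2 change of -2.42 ± 0.055 (edgeR, Benjamini-Hochberg adjusted p = 2.17e-25). CDKN1A, the p21 inhibitor, measured 14.0 and 15.7 CPM in control and 63.1 and 64.1 CPM in 320 µM adapted cells, a log2 change of 2.10 ± 0.081. Both cyclins E, which drive entry into S phase, fell: CCNE1 from 18.4 and 20.4 CPM to 7.45 and 7.43 CPM and CCNE2 from 23.4 and 22.8 CPM to 8.21 and 9.81 CPM, the latter call being lost in cells of the g1 list (-0.058). MYC, a transcription factor of growth, rose from 138 and 143 CPM to 202 and 195 CPM.

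CDKN2A, which encodes the inhibitors p16 and ARF and is abundant in serous carcinoma with an inactive RB pathway, fell steeply. It lies on GRCh38 chromosome 9, 21967753 to 21995301, and measured 821 and 870.0 CPM in control and 21.9 and 23.3 CPM in 320 µM adapted cells. The adapted mean was 2.68% of the control mean, a log2 change of -5.22 ± 0.062 (edgeR, Benjamini-Hochberg adjusted p = 3.27e-31). After thinning it was detected in 89.8% and 91.1% of control cells and in 5.15% and 5.79% of 320 µM adapted cells, and without thinning in 98.8%, 99.4%, 14.0% and 15.2% in the same order. Of 14 genes tested around it on 9p21, 12 fell and none rose by the same test, with a median of -1.18. MTAP, the adjacent gene of methionine salvage at chromosome 9, 21802543 to 21937651, measured 72.0 and 70.3 CPM in control and 2.07 and 3.08 CPM in 320 µM adapted cells, a log2 change of -4.78 ± 0.11. MOB3B, further along the arm at chromosome 9, 27325209 to 27529781, measured 31.8 and 31.7 CPM in control and 0.877 and 1.51 CPM in 320 µM adapted cells, a log2 change of -4.71 ± 0.15. PLAA, at chromosome 9, 26904083 to 26947463, and IFT74, at chromosome 9, 26947039 to 27062930, lie between MTAP and MOB3B. PLAA fell from 51.3 and 50.5 CPM to 20.98 and 21.8 CPM and IFT74 from 41.2 and 38.5 CPM to 30.5 and 32.7 CPM, log2 changes of -1.25 ± 0.07 and -0.33 ± 0.071, so that the genes with the steep falls were not an unbroken run. In 10 µM adapted cells CDKN2A measured 242 and 250.4 CPM, MTAP 18.4 and 17.9 CPM and MOB3B 6.33 and 6.06 CPM.

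Of 27 genes of the BCL2 family and apoptosis, 9 rose and 14 fell, with a median of -0.29. BAX, a pore former of apoptosis, rose from 79.8 and 78.4 CPM to 160.4 and 161 CPM. BTG2, an antiproliferative gene outside that family, fell from 115 and 120.5 CPM to 8.14 and 7.67 CPM. The protective members MCL1 and BCL2L1 fell, MCL1 from 159 and 155 CPM to 72.0 and 78.6 CPM and BCL2L1 from 77.6 and 82.6 CPM to 29.3 and 33.1 CPM.

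Genes of the integrated stress response, in which phosphorylated eIF2 lets ATF4 be translated, rose in most cases. Of 34 genes tested, 25 rose and 4 fell, with a median of 1.13. DDIT4, an inhibitor of mTORC1, measured 17.8 and 18.4 CPM in control and 267 and 262 CPM in 320 µM adapted cells, with a log2 change of 3.87 ± 0.059 (edgeR, Benjamini-Hochberg adjusted p = 1.55e-29). TRIB3, a pseudokinase that feeds back on ATF4, rose from 5.26 and 5.13 CPM to 36.9 and 34.5 CPM, STC2, a secreted stanniocalcin, from 8.40 and 8.02 CPM to 45.3 and 44.1 CPM, and SHMT2, an enzyme of one-carbon metabolism, from 51.3 and 51.4 CPM to 130.2 and 129 CPM. GDF15, a stress cytokine that lowers appetite, measured 4.25 and 4.67 CPM in control and 67.1 and 70.0 CPM in 320 µM adapted cells, a log2 change of 3.94 ± 0.15. PHGDH, the first enzyme of serine synthesis, went the other way, from 149.6 and 159 CPM to 58.6 and 64.3 CPM, and it lies on chromosome 1, where 3 of the 4 members of this list fell. Elsewhere 1 of 30 members fell.

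NRF2, which answers oxidants and electrophiles, drives genes of antioxidant defence and iron storage. Of 27 targets tested, 19 rose and 4 fell, with a median of 0.94 that was 0.58 in a fit of only the 4 sums. HMOX1, heme oxygenase, measured 7.43 and 8.44 CPM in control and 164 and 151 CPM in 320 µM adapted cells, a log2 change of 4.31 ± 0.21 (edgeR, Benjamini-Hochberg adjusted p = 3.89e-06). FTH1, the heavy chain of ferritin, measured 5086 and 5044 CPM in control and 22430 and 22150 CPM in 320 µM adapted cells, a log2 change of 2.14 ± 0.032. FTL, the light chain, measured 4041 and 4092 CPM in control and 15420 and 15370 CPM in 320 µM adapted cells, a log2 change of 1.92 ± 0.035. TXNRD1, thioredoxin reductase, went from 176 and 168 CPM to 633 and 599 CPM, and NQO1, a quinone reductase, from 90.0 and 91.9 CPM to 373 and 357 CPM. Ferritin genes have many processed pseudogenes, so that their counts are uncertain to the extent that reads could be split. Of 17 glutathione enzymes, 7 rose and 9 fell, with a median of -0.63 that was -0.32 in cells of the g1 list. MGST1, a membrane glutathione transferase, fell from 153 and 144 CPM to 19.4 and 17.8 CPM, and GSTM4, a cytosolic one, from 65.2 and 66.3 CPM to 3.88 and 3.60 CPM. All 5 glutathione enzymes of chromosome 1 fell, and the other 12 had a median of 0.34. Of 17 genes of iron handling and ferroptosis, 9 rose and 6 fell, with a median of 0.28, and with library totals 6 rose and 6 fell. SLC39A8, a zinc and iron importer, fell from 60.6 and 59.7 CPM to 6.58 and 6.04 CPM. Of 19 heat shock genes, 5 rose and 11 fell, with a median of -0.23 that was -0.36 without control pool 1.

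Glycolytic genes and targets of hypoxia-inducible factor rose together. Of 30 genes tested, 25 rose and 3 fell, with a median of 0.70 that was 1.10 in cells of the g1 list. NDUFA4L2, a mitochondrial protein induced by low oxygen, is not on this list and was named as one of the 15 largest rises. It measured 0.884 and 0.976 CPM in control and 60.4 and 55.5 CPM in 320 µM adapted cells, with a log2 change of 5.95 ± 0.15 (edgeR, Benjamini-Hochberg adjusted p = 1.60e-23). BNIP3, a receptor for the removal of mitochondria, measured 82.5 and 82.8 CPM in control and 408 and 387 CPM in 320 µM adapted cells, a log2 change of 2.27 ± 0.051. ENO2, an enolase, measured 4.55 and 4.67 CPM in control and 29.6 and 30.9 CPM in 320 µM adapted cells, a log2 change of 2.71 ± 0.11. PFKP, a phosphofructokinase, went from 25.9 and 27.4 CPM to 138 and 136 CPM, and VEGFA, the endothelial growth factor, from 14.8 and 17.1 CPM to 63.8 and 66.5 CPM. Control and adapted sums did not overlap for any of these 5 genes, which the naming rule asked of NDUFA4L2. Hypoxia-inducible factor binds a core of ACGTG, and 2 promoters with that core in capitals, on either strand, are shown because the genes rose: BNIP3 at chr10:131981924-131982173 on the minus strand and ENO2 at chr12:6914330-6914579 on the plus strand, from RefSeq on GRCh38.p14. In BNIP3 the cores of both strands overlap.
BNIP3: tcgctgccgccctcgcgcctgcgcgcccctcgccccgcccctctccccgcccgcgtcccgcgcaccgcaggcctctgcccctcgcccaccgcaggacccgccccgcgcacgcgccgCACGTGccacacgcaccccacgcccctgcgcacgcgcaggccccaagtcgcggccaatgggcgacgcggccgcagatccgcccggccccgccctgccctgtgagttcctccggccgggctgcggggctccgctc
ENO2: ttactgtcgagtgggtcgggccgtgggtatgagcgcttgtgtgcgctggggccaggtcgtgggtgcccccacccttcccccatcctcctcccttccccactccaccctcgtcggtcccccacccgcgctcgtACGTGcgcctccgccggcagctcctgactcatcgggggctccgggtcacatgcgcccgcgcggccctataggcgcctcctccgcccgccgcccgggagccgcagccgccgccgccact
ACGTG was found on either strand of the same 250 bases for 18 of 28 list genes with an entry (64.3%), in 18.5% of all promoters and for 28.7% of tested genes with an entry. The ATF4 core TGATGNAA was found for 7 of 27 genes of the integrated stress response (25.9%), in 3.14% of all promoters and for 2.44% of tested genes with an entry.

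Ribosomal protein genes rose as a class, and mitochondrial genes did not. Of 43 proteins of the large ribosomal subunit, 39 rose and 1 fell, with a median of 0.87. RPL28, on chromosome 19, measured 4832 and 4905 CPM in control and 13770 and 13930 CPM in 320 µM adapted cells, a log2 change of 1.51 ± 0.038. RPL32, on chromosome 3, measured 2683 and 2691 CPM in control and 8863 and 8764 CPM in 320 µM adapted cells, a log2 change of 1.71 ± 0.035. The 5 members on the short arm of chromosome 3 or the end of chromosome 19 had a median of 1.51, and 34 of the other 38 rose, with a median of 0.82. These genes have many processed pseudogenes, and their summed share moved with the condition as given above. Of 13 mitochondrially encoded genes, 10 fell and 2 rose, with a median of -0.44, and in cells of the g1 list 7 fell and 4 rose, with a median of -0.17. MT-CYB, cytochrome b, went from 14190 and 13610 CPM to 7089 and 7116 CPM and MT-ATP6, a subunit of ATP synthase, from 6168 and 6004 CPM to 2983 and 3028 CPM. Of 65 nuclear genes of oxidative phosphorylation, 38 fell and 14 rose, with a median of -0.20 that was -0.13 in cells of the g1 list. All 6 members on chromosome 1, ATP5PB among them, fell. Of the other 59, 32 fell, with a median of -0.18. ATP5PB, a stalk subunit of ATP synthase, fell from 303 and 295 CPM to 95.3 and 93.1 CPM, and SDHC, a subunit of succinate dehydrogenase, from 231 and 226 CPM to 101.5 and 105 CPM.

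Genes of the lysosome rose more often than they fell. Of 44 genes of autophagy and the lysosome, 28 rose and 9 fell, with a median of 0.44, and with library totals 20 rose and 13 fell, with a median of 0.22. NPC2, a carrier of cholesterol out of lysosomes, rose from 109.8 and 108 CPM to 460.2 and 436 CPM, GRN, the progranulin gene, from 80.2 and 75.9 CPM to 179.7 and 178 CPM, and GABARAPL1, an autophagosome protein, from 7.30 and 7.04 CPM to 22.1 and 24.9 CPM. Of 24 cholesterol synthesis genes, 5 rose and 14 fell, with a median of -0.30, but in cells of the g1 list 6 rose and 8 fell, with a median of -0.04. Of 25 genes of fatty acid oxidation, 8 rose and 11 fell, with a median of -0.32 that was -0.16 in cells of the g1 list. FABP5, a carrier of fatty acids in the cytosol, measured 10.1 and 9.71 CPM in control and 176 and 162 CPM in 320 µM adapted cells, a log2 change of 4.09 ± 0.081.

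Most interferon-stimulated genes fell. Of 52 such genes tested, 32 fell and 7 rose, with a median of -0.77. BST2, the tetherin that holds virions at the membrane, measured 238 and 234 CPM in control and 17.0 and 15.6 CPM in 320 µM adapted cells, a log2 change of -3.85 ± 0.058 (edgeR, Benjamini-Hochberg adjusted p = 1.51e-29). IFI27, a mitochondrial interferon-induced protein, went from 164 and 153 CPM to 33.6 and 36.8 CPM, GBP1, a guanylate-binding protein, from 65.4 and 70.3 CPM to 8.08 and 9.00 CPM, and PARP14, a mono-ADP-ribosyltransferase, from 66.4 and 63.0 CPM to 12.7 and 12.7 CPM. CXCL10, an interferon-induced chemokine, measured 3.40 and 3.56 CPM in control and 2.94 and 4.24 CPM in 320 µM adapted cells. CGAS, the sensor of DNA in the cytosol, had 74 and 75 UMIs in control and 5 and 3 UMIs in 320 µM adapted cells, the second adapted sum being at the floor of 3 UMIs, so that no fold is given. Its adaptor STING, here under the symbol TMEM173, measured 26.7 and 27.4 CPM in control and 22.4 and 23.1 CPM in 320 µM adapted cells, a log2 change of -0.25 ± 0.073 that did not pass the test in thinned cells (-0.24) or in cells of the g1 list (-0.051).

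Of 22 genes of MHC class I presentation, 9 rose and 4 fell, with a median of 0.27, and the 40.9% that rose stand beside 37.6% over all genes tested. With library totals 7 rose and 9 fell, with a median of 0.05. HLA-B measured 85.3 and 90.5 CPM in control and 354 and 348 CPM in 320 µM adapted cells, a log2 change of 2.00 ± 0.046. HLA-C measured 74.4 and 66.8 CPM in control and 308 and 296 CPM in 320 µM adapted cells, a log2 change of 2.10 ± 0.068. These genes are near copies of each other and differ between people, so that counting against 1 reference can shift reads between them. PSMB9, an immunoproteasome subunit, rose from 14.9 and 15.9 CPM to 48.7 and 44.4 CPM (log2 change 1.59 ± 0.077), and PSME2, an activator of the proteasome, fell from 407 and 414 CPM to 191 and 189 CPM (log2 change -1.11 ± 0.043). Among 14 ligands that lymphocytes read, 5 rose and 7 fell, with a median of -0.36, and in cells of the g1 list 5 rose and 5 fell. CD70, the ligand of CD27 on lymphocytes, measured 3.40 and 3.90 CPM in control and 252 and 250.1 CPM in 320 µM adapted cells, with a log2 change of 6.10 ± 0.085 (edgeR, Benjamini-Hochberg adjusted p = 2.38e-30). After thinning it was detected in 0.990% and 1.08% of control cells and in 41.9% and 43.6% of 320 µM adapted cells, and without thinning in 3.04%, 3.67%, 70.0% and 73.1% in the same order. CD47, which tells macrophages not to engulf a cell, measured 310.4 and 330.2 CPM in control and 59.2 and 60.7 CPM in 320 µM adapted cells, a log2 change of -2.42 ± 0.05.

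**Figure D2:**
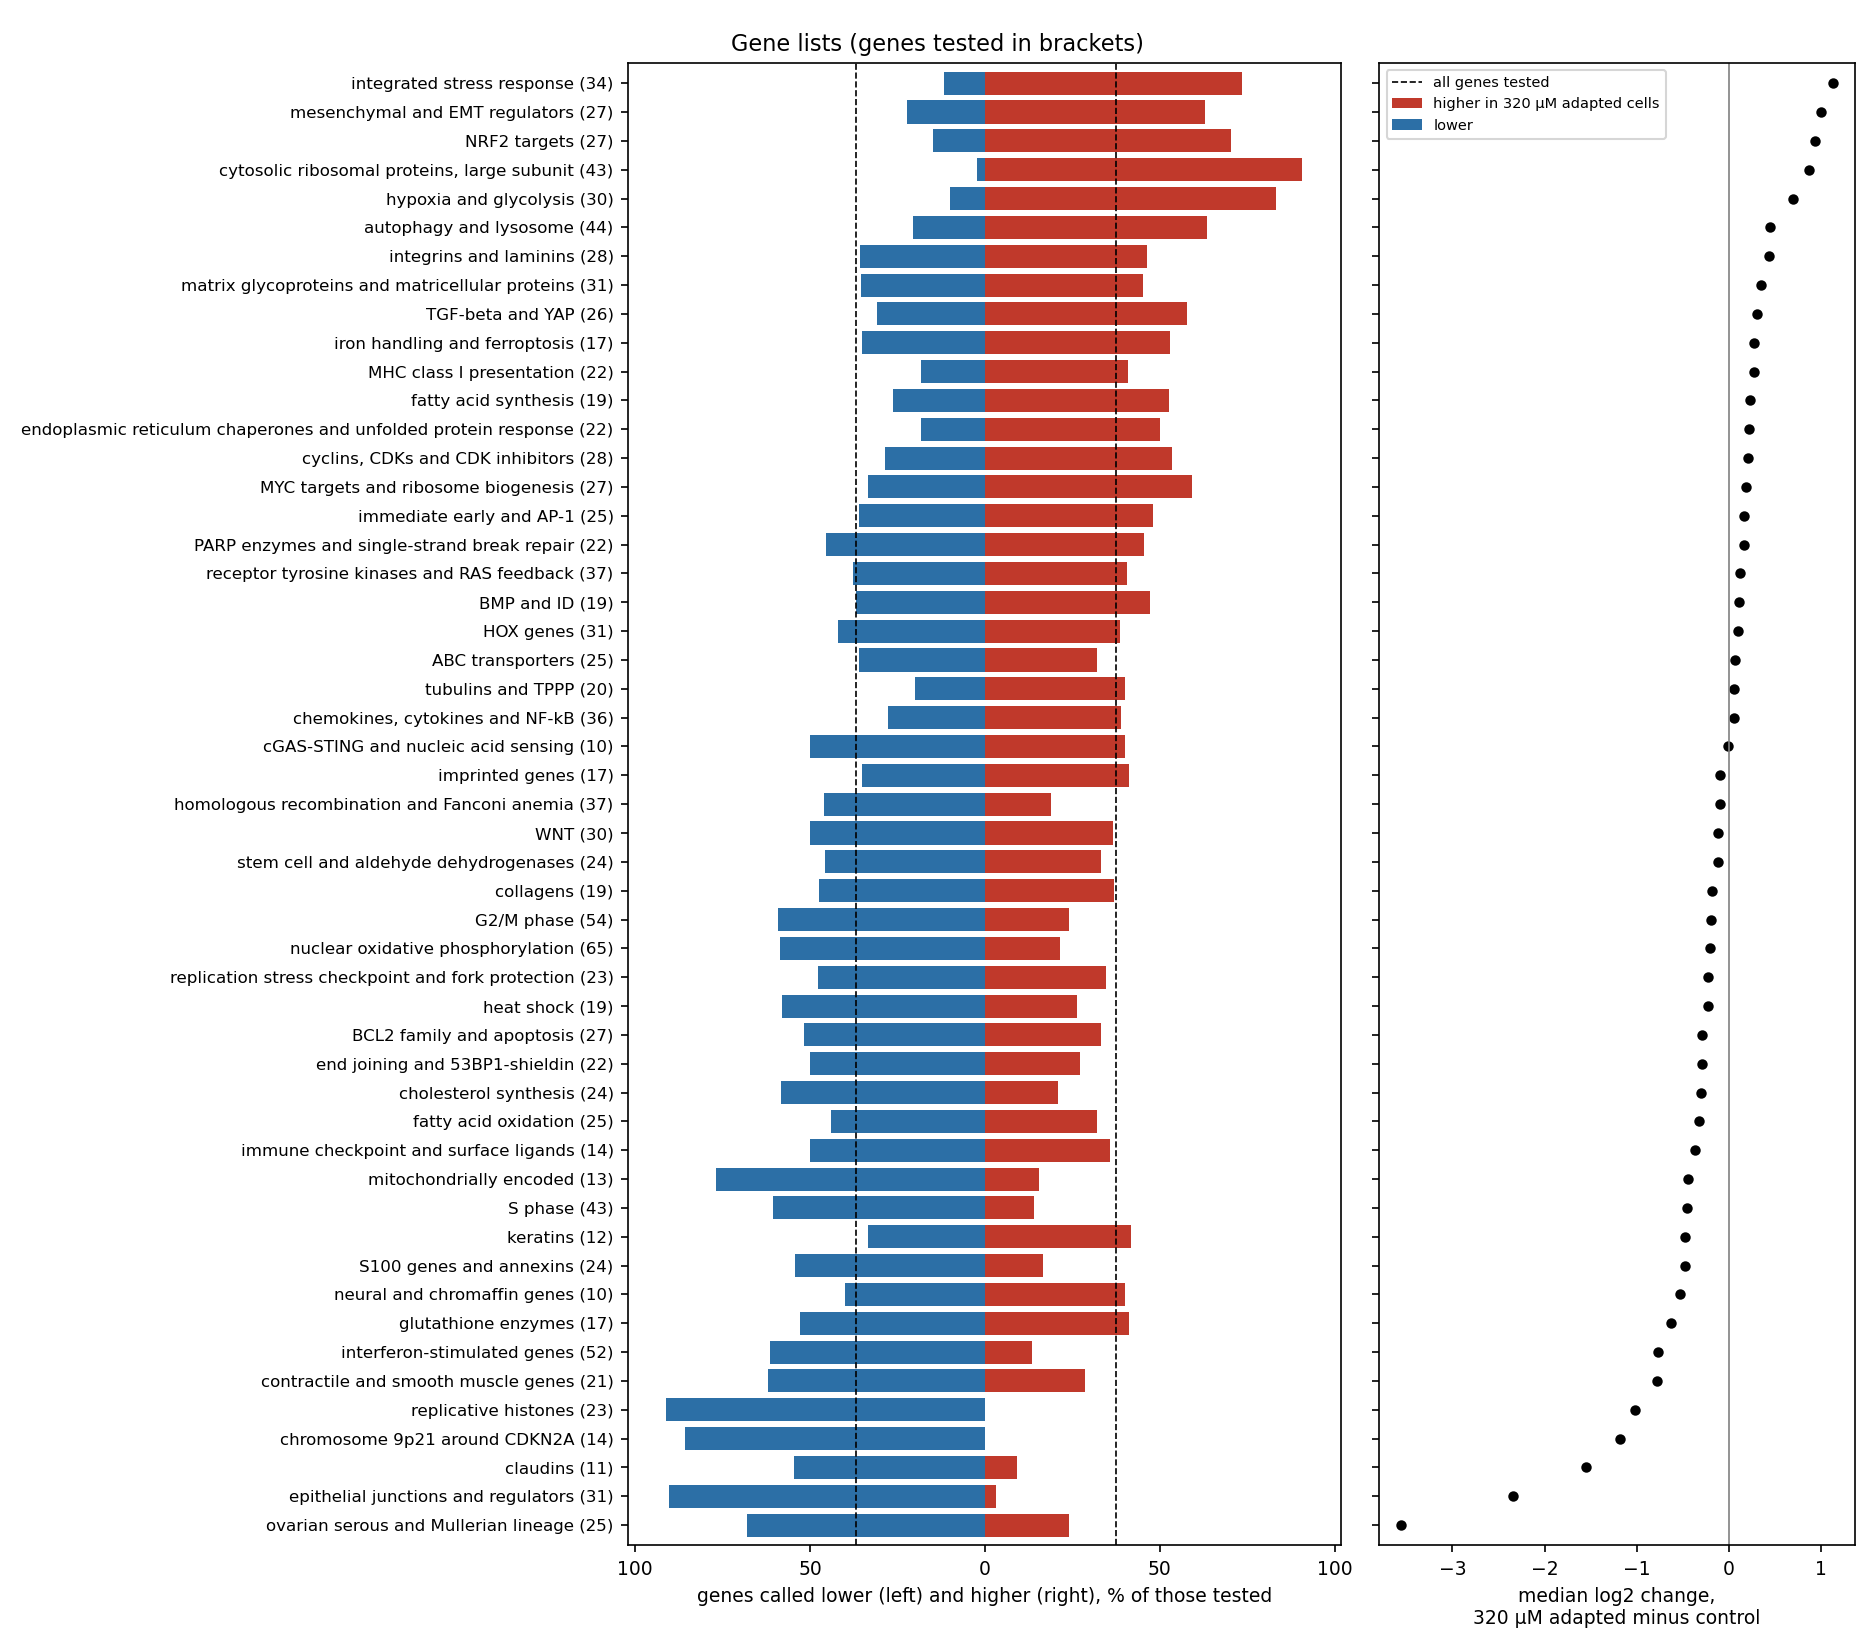
Left, share of tested genes in each list that were lower (blue, to the left) or higher (red, to the right) in 320 µM adapted cells than in control, with the shares over all genes tested as dashed lines at 36.9% and 37.6%. Right, the median log2 change of each list. Epithelial junction and ovarian lineage lists lie lowest, at medians of -2.34 and -3.56, and the integrated stress response highest, at 1.13.

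The 15 largest rises among genes of at least 50 CPM were, in order, C16orf45, CD70, KCNMA1, NDUFA4L2, LAMA4, PDE1C, FHL1, CD44, MRC2, CLEC11A, HMOX1, FOSL1, FABP5, TPBG and GDF15, with log2 changes from 6.33 down to 3.94. Some of them belong to none of the groups above. KCNMA1, the pore of a calcium-activated potassium channel, measured 0.884 and 1.10 CPM in control and 65.8 and 68.8 CPM in 320 µM adapted cells. PDE1C, a calmodulin-dependent phosphodiesterase, measured 2.61 and 3.44 CPM in control and 93.1 and 83.4 CPM in 320 µM adapted cells. FOSL1, a subunit of AP-1, measured 2.43 and 2.97 CPM in control and 55.9 and 49.0 CPM in 320 µM adapted cells. Control levels of these 15 genes were 1.23% to 6.50% of the adapted level. The 15 largest falls were FLG, APOA1, SOX17, LYPD1, LEMD1, CDKN2A, MSLN, CDH6, KIAA0040, SPINT2, REC8, DCDC2, KIAA1217, SPON1 and BMP7, with log2 changes from -7.08 to -4.94, and adapted levels were 0.714% to 3.24% of control. FLG, the filaggrin gene of the skin barrier, measured 59.0 and 58.0 CPM in control and 0.313 and 0.523 CPM in 320 µM adapted cells. APOA1, the main protein of high-density lipoprotein, measured 102.1 and 116 CPM in control and 1.69 and 1.34 CPM in 320 µM adapted cells. REC8, a cohesin of meiosis, measured 94.8 and 93.4 CPM in control and 2.76 and 3.08 CPM in 320 µM adapted cells.

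These genes were also read in single cells. They were chosen from the same cells, so that the following is a description with no test. After thinning to 3000 UMIs, at least 5 of the 15 fallen genes were detected in 70.8% and 70.3% of control cells (1715 of 2424 and 1503 of 2137). At that depth this held for 0 of 3849 of the 320 µM adapted cells. At least 5 of the 15 risen genes were detected in 22.5% and 24.9% of 320 µM adapted cells (454 of 2019 and 455 of 1830) and in 0 of 4561 control cells. Without thinning, 5 or more fallen genes were detected in 96.9% and 97.4% of control cells and in 0.245% and 0.704% of 320 µM adapted cells, and 5 or more risen genes in 0.0411% and 0.232% and in 80.4% and 84.7%. Among thinned 10 µM adapted cells the shares were 8.52% and 9.02% for the fallen and 2.84% and 2.82% for the risen genes. The medians were 5 fallen and no risen gene per control cell, no fallen and 3 risen genes per 320 µM adapted cell, and 2 and 1 per 10 µM adapted cell.

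**Figure D3:**
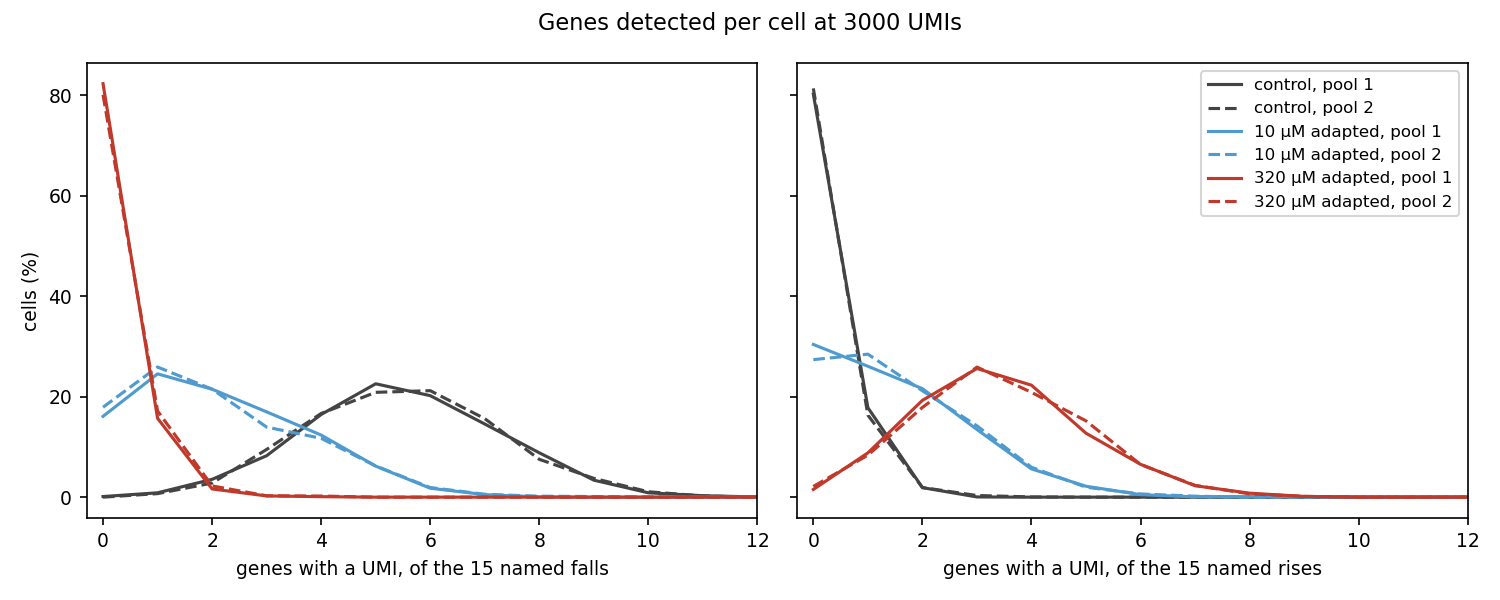
Share of cells (percent) by how many of the 15 fallen genes (left) or the 15 risen genes (right) had a UMI after thinning to 3000 UMIs, with 1 line per condition and pool. Control and 320 µM adapted cells have medians of 5 and 0 fallen genes and overlap where cells hold 0 to 4 of them, and 10 µM adapted cells have a median of 2.

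Changes followed position along the genome. Over 233 bins of 10 Mb with at least 20 tested genes, the medians of the log2 change had an SD of 0.448 for 320 µM adapted against control cells, 0.295 for 10 µM adapted against the same control cells and 0.143 for 320 µM persister against the same control cells. Bins at or under -0.5 numbered 46 in 320 µM adapted cells and bins at or over 0.5 numbered 17. Of 1373 genes on chromosome 1, 978 fell and 150 rose, with a median of -0.74, against -0.54 in 10 µM adapted and -0.04 in 320 µM persister cells. The lowest stretch of that chromosome, from 110 to 120 Mb, had a median of -1.33 over 57 genes, of which 49 fell. It holds CAPZA1, an actin capping subunit, which went from 151 and 154 CPM to 43.5 and 50.3 CPM, and WDR77, a partner of the methyltransferase PRMT5, from 55.7 and 58.8 CPM to 13.03 and 14.1 CPM.

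Other chromosome ends rose. Of 325 genes before 60 Mb on chromosome 3, 249 rose and 26 fell, with a median of 0.83, against 0.06 in 10 µM adapted and 0.08 in 320 µM persister cells. Of 181 genes beyond 50 Mb on chromosome 19, 151 rose and 11 fell, with a median of 1.44, against 0.76 and 0.00. CLEC11A, a secreted growth factor gene there, rose from 3.67 and 3.60 CPM to 76.0 and 75.7 CPM, and A1BG, a plasma glycoprotein gene, from 18.4 and 19.5 CPM to 206 and 206 CPM. From 200 to 220 Mb on chromosome 2, which holds XRCC5, 75 of 107 genes fell and 17 rose, with a median of -0.66. The share of each cell's UMIs from chromosome 1, leaving out ribosomal protein and mitochondrial genes, had medians of 14.5% and 14.6% in control and 8.13% and 8.12% in 320 µM adapted cells. The 95th percentile of the adapted cells was 9.81% and 9.98%, under the 5th percentile of control, 11.9% and 11.9%. Without ribosomal protein genes the medians were -0.74 on chromosome 1, 0.81 before 60 Mb on chromosome 3 and 1.44 beyond 50 Mb on chromosome 19. Whether copy number or another cause lies behind these blocks was not tested.

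**Figure D4:**
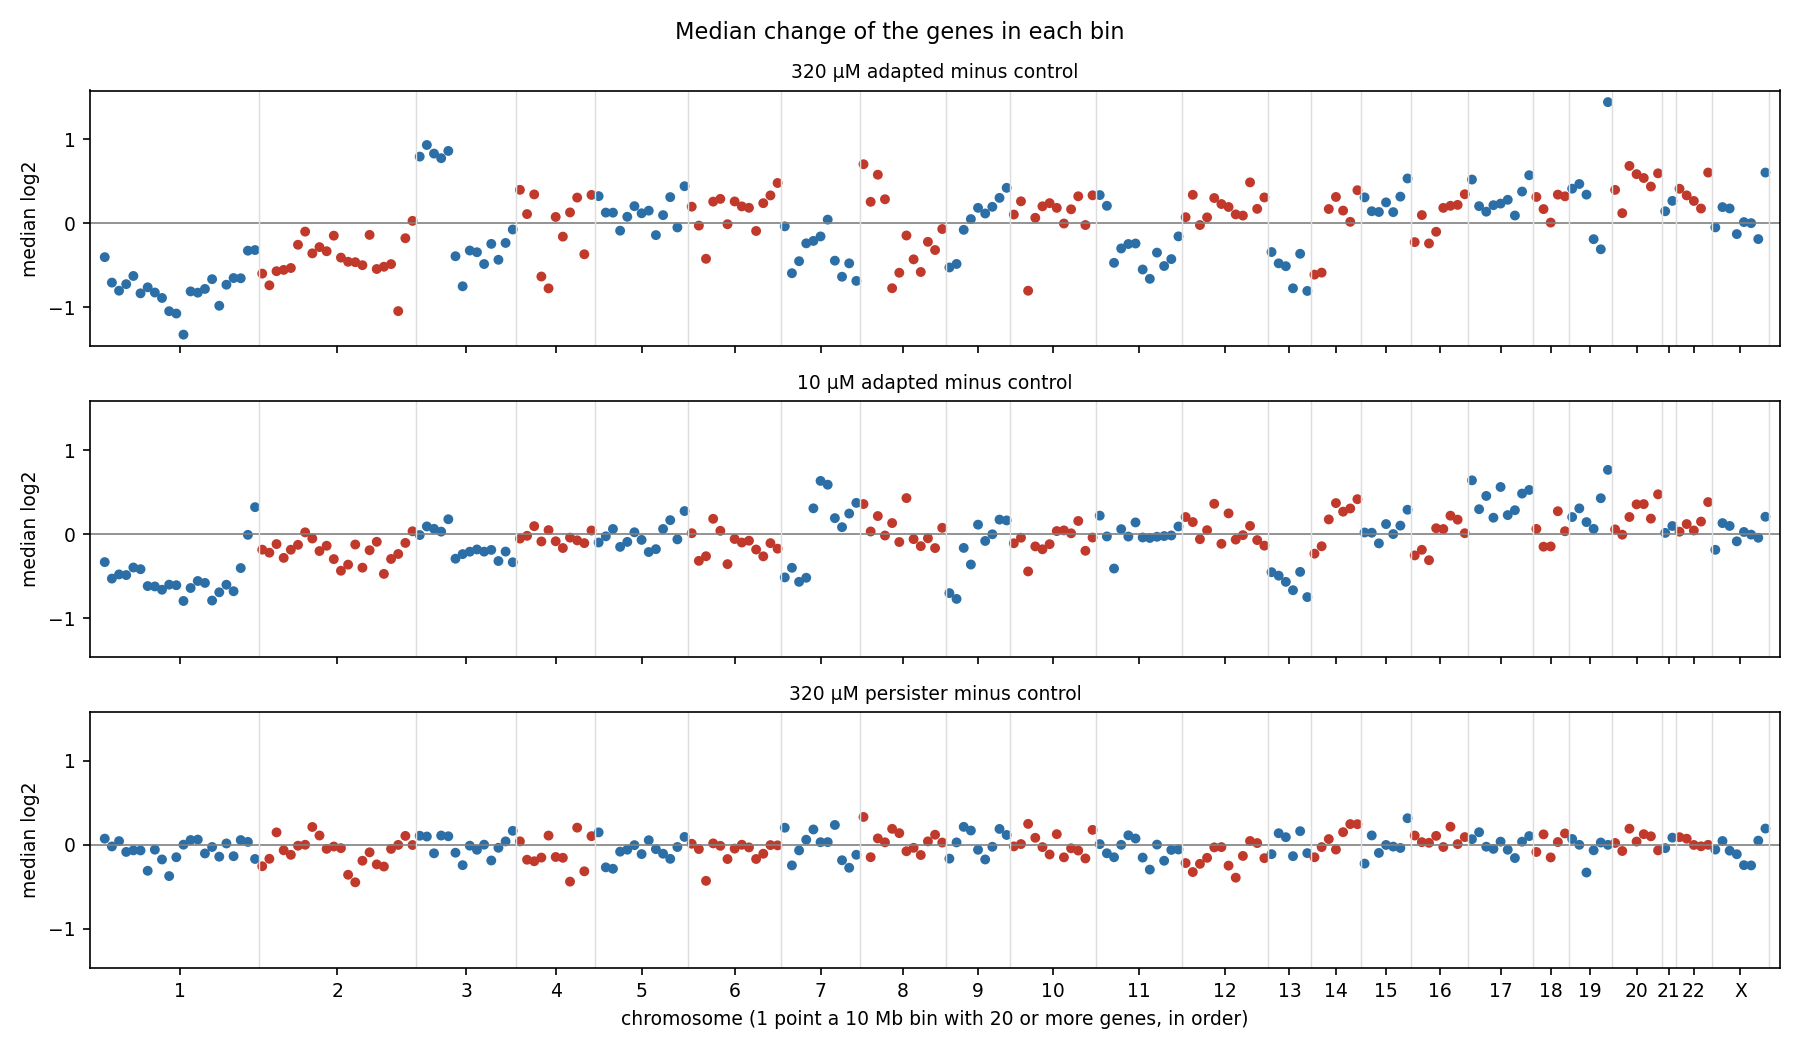
Median log2 change of the genes in each 10 Mb bin with at least 20 tested genes, in chromosome order, with 1 panel for each of 3 conditions against the same control cells. Colours alternate between chromosomes. In 320 µM adapted cells chromosome 1 lies below 0 (median -0.74) while the start of chromosome 3 (0.83) and the end of chromosome 19 (1.44) lie above it, and in 320 µM persister cells no bin is beyond 0.5 in size.

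Position and function overlapped in several lists. The S100 and annexin list had 24 tested genes, of which 13 fell and 4 rose, with a median of -0.48 that was -0.90 in a fit of only the 4 sums. Of its members 14 lie on chromosome 1 and 9 of those fell, while the other 10 had a median of 0.13 and 4 falls. S100A11, a calcium-binding protein, went from 860.5 and 889 CPM to 464 and 457 CPM. In each such list the part of chromosome position in the count was not tested beyond these splits.

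The 320 µM adapted cells were also compared directly with the 10 µM adapted cells. How either population was derived is unknown here, so that dose and derivation cannot be told apart. In that comparison 4449 genes were higher in 320 µM adapted cells (33.4%) and 4317 lower (32.4%). NRN1, a neuritin gene of neurite growth, measured 14.6 and 17.3 CPM in 10 µM and 303 and 294 CPM in 320 µM adapted cells, a log2 difference of 4.22 ± 0.069 (edgeR, Benjamini-Hochberg adjusted p = 1.19e-28). NDUFA4L2 measured 4.64 and 3.80 CPM in 10 µM adapted cells, CD70 31.4 and 33.8 CPM and HMOX1 13.9 and 16.8 CPM, all under the levels given above for 320 µM adapted cells, by log2 differences of 3.78 ± 0.12, 2.95 ± 0.066 and 3.36 ± 0.20. The 2 adapted populations did not overlap in any of these 4 genes. NDUFA4L2, CD70 and HMOX1 were higher in 10 µM adapted cells than in control too, by log2 changes of 2.17, 3.15 and 0.95 (edgeR). Of 30 hypoxia and glycolysis genes, 29 were higher in 320 µM adapted cells and none was lower by this test.

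Matrix genes of fibroblasts were higher in 10 µM than in 320 µM adapted cells. COL1A1, the main fibrillar collagen chain, measured 93.6 and 90.8 CPM in 10 µM and 1.13 and 0.639 CPM in 320 µM adapted cells, a log2 difference of -6.71 ± 0.14 (edgeR, Benjamini-Hochberg adjusted p = 6.56e-26). BGN, a matrix proteoglycan, measured 61.7 and 55.1 CPM and 0.313 and 0.581 CPM, SULF1, a sulfatase of heparan sulfate, 131 and 136 CPM and 1.06 and 1.57 CPM, and VCAM1, an adhesion receptor for leukocytes, 109 and 102.2 CPM and 1.57 and 1.10 CPM. Of 31 matrix glycoproteins, 23 were lower and 6 higher in 320 µM than in 10 µM adapted cells. SOX17 measured 14.6 and 18.2 CPM in 10 µM adapted cells and was lower in 320 µM adapted cells by a log2 difference of -1.52 ± 0.34, and of 25 lineage genes 20 were lower and 2 higher. Of 52 interferon-stimulated genes, 35 were lower and 2 higher in 320 µM adapted cells.

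Against cells that had survived 9 days at the same dose, 4548 genes were higher in 320 µM adapted cells (34.1%) and 4343 lower (32.6%). LAMA4 measured 1.49 and 2.21 CPM in persister and 98.9 and 92.7 CPM in adapted cells, a log2 difference of 5.69 ± 0.13 (edgeR, Benjamini-Hochberg adjusted p = 8.88e-25). CP, the ceruloplasmin gene, measured 191 and 167 CPM in persister and 4.70 and 3.54 CPM in adapted cells, a log2 difference of -5.45 ± 0.20. MSLN measured 86.6 and 91.7 CPM and CLDN3 123 and 121 CPM in persister cells, above their adapted levels by the size of log2 differences of -5.24 ± 0.10 and -5.21 ± 0.098. Of 25 lineage genes, 16 were lower and 5 higher in adapted than in persister cells, and of 31 junction genes 23 were lower and 1 higher. Of 54 G2/M genes, 48 were higher in adapted than in persister cells and 2 lower, and of 34 genes of the integrated stress response 8 were higher and 19 lower.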

How the data were processed

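Kuramochi cells were captured with 10x Genomics 3′ v3.1 chemistry and TotalSeq-A hashtags in 2 pools, per the labels' protocols. The submitters' processing notes name Cell Ranger 3.1 and Seurat without saying what each did. Counting settings, cell filters and demultiplexing are not given. The matrix deposited by the authors gives raw UMI counts of 19893 genes in 13800 cells, and the condition and pool of each cell come from its deposited name. No doublet caller was run.

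Counts were summed per condition and pool (18358406 to 23189583 UMIs in the 4 sums compared), scaled by edgeR's trimmed mean of M-values (TMM, 0.868 to 1.017 for them), filtered with filterByExpr and tested with edgeR 4.0.16 (R 4.3.3), its robust quasi-likelihood model holding all 10 sums and a mean for each condition (5 residual degrees of freedom, biological coefficient of variation 4.39%) and Benjamini-Hochberg adjustment over 13330 genes at 0.05. The procedure was tested on simulated data. CPM are values scaled with trimmed means, except that sums of cell type markers are scaled by library totals. SE is that of the fitted log2 change. Up to 3 UMIs in a sum count as the floor, and floors cover counting error only. Cells were thinned to 3000 UMIs for shares of cells and for phases, called with scanpy 1.11.5 in Python 3.11.15, which left out 35 adapted and 29 control cells. Gene positions are from GENCODE 29 on GRCh38, and promoters from RefSeq on GRCh38.p14.

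Same-numbered sums share a pool, as given by the cell names, and their pool differences correlated at 0.365 to 0.657 between conditions over 1870 genes. The numbers therefore pair the samples, and a fit with the pool as replicate block was an alternative. Other alternatives were DESeq2 1.42.0, library totals, other filters, only the 4 sums compared, cells of the deposited g1 list, thinned cells and each sum left out.

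Lists, 54 in all, and the members were chosen with earlier results of these data known. Genes named were the 15 largest rises and falls with at least 50 CPM and no overlap between groups, the 5 largest in the other comparisons, the 6 members of each list with the lowest p among those of at least 20 CPM, all members of lists with 12 or fewer genes tested, up to 5 genes of outlying bins, and a fixed set of drug response, repair, cycle and lineage genes. Of these, some are described by counts only. WFDC2, SLPI and CD68 were named after their values were seen. Some genes that the rule names are not reported here.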

Additional observations from a re-analysis of the deposited data

Results flagged for a closer look

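In 6 genes given here the 2 adapted populations moved in opposite directions from the same control cells. A rule picked them that asks for opposite calls against control, each of at least 2-fold. It also asks for at least 50 CPM and an adjusted p under 0.05 between the adapted populations. The test of that difference gave Benjamini-Hochberg adjusted p between 3.34e-29 and 0.000245 (edgeR). Since the rule used this test, it adds no support. CRABP2, a retinoic acid binding protein, was lower at 320 µM and higher at 10 µM. It had means of 262 CPM in control, 543 CPM in 10 µM adapted and 18.6 CPM in 320 µM adapted cells, a log2 difference between the adapted populations of -4.86. Actin regulators did the same, TAGLN with a difference of -3.42 and CALD1 with one of -2.72. S100A2, a calcium-binding protein, differed by -3.31 and KDELR1, a receptor that returns proteins to the endoplasmic reticulum, by -2.49. NRN1 was higher at 320 µM and lower at 10 µM, with 83.9, 15.95 and 298.5 CPM in the same order and a difference of 4.22.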

How the results depend on the processing

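Counts of genes higher or lower in 320 µM adapted than in control cells stayed within 1.5 times of 5012 and 4918 in each alternative run. With the pool as a replicate block they were 5208 and 5111, with DESeq2 4382 and 4362, and leaving out 1 sum gave 4584 to 4664 higher and 4507 to 4604 lower genes. With library totals, genes higher than in 320 µM persister cells numbered 3027 in place of 4548. The difference in G2/M share, adapted minus control, was -0.225 percentage points with thinning and 2.81 without. BRCA1 and BRCA2 turned to -0.58 and -0.88 among cells of the g1 list. List medians that changed sign were those of PARP and single-strand break repair (-0.065 with library totals), ABC transporters (-0.16 with library totals, -0.033 without a filter, -0.10 at 10 CPM or more, and -0.10 to 0.019 with a sum left out), cyclins (-0.013 with library totals and -0.0012 in cells of the g1 list) and collagens (0.088 in thinned cells). Of 153 genes named, 9 changed their call or sign in at least 1 alternative.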

Other observations

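Lists not described above held changes in both directions in 320 µM adapted against control cells. Of 31 HOX genes tested, which set position along the body axis, 12 rose and 13 fell. Of 37 receptor tyrosine kinases and RAS feedback genes, 15 rose and 14 fell (14 and 15 with library totals), and of 30 WNT genes 11 rose and 15 fell, with a median log2 change of -0.12 for the second (-0.31 without control pool 2 or without adapted pool 1). Of 36 chemokine, cytokine and NF-kB genes, 14 rose and 10 fell (11 and 13 with library totals, 9 and 10 in cells of the g1 list), and of 25 immediate early genes 12 rose and 9 fell (10 and 11 with library totals). Among 22 chaperones and stress genes of the endoplasmic reticulum, 11 rose and 4 fell (10 and 9 with library totals). Of 27 MYC targets and ribosome biogenesis genes, 16 rose and 9 fell (9 and 10 with library totals), and of 19 genes of fatty acid synthesis 10 rose and 5 fell (8 and 7 with library totals). Of 24 stem cell and aldehyde dehydrogenase genes, 8 rose and 11 fell. These shares stand beside 37.6% higher and 36.9% lower over all genes tested.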
